A study of Mus musculus with 16 samples.

Results

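The unfolded protein response genes and ATF4 targets described here are 37 genes of mouse liver, out of 19939 genes that the arrays measure with a probe set naming 1 gene alone. The members are a list of gene symbols, and each gene is represented by its probe set of highest mean. Total liver RNA was hybridised to Affymetrix whole-transcript arrays, 1 array per sample, with 4 arrays in each of 4 genotypes on the 129 mouse strain. The genotypes were Rassf1a-/-, Sav1+/-, Rassf1a-/- Sav1+/-, which carries both changes, and wild type. Rassf1a-/- lacks both copies of Rassf1a, a tumour suppressor of the RASSF family. Sav1+/- has 1 intact copy of the gene for the Hippo pathway scaffold Salvador. No treatment is labelled. The labels give no age, sex, time of day or feeding state, and do not say whether the 4 arrays of a genotype are 4 animals, so every p-value reflects the spread between arrays, which may be technical in part. Replicate numbers follow the order of deposition and only name an array.

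The endoplasmic reticulum (ER) is where secreted and membrane proteins fold, and hepatocytes secrete most plasma proteins. When unfolded proteins build up there, 3 sensors respond: IRE1, encoded by Ern1, splices Xbp1 RNA; PERK, encoded by Eif2ak3, phosphorylates a translation initiation factor, which lowers protein synthesis but favours translation of ATF4; and ATF6 is cleaved to release a transcription factor. Their targets encode chaperones, disulfide isomerases and the machinery that returns misfolded proteins to the cytosol for degradation, while ATF4 drives genes of amino acid supply and, under lasting stress, of cell death. In liver the response also varies with feeding and over the day. The arrays report RNA signal and show neither Xbp1 splicing nor protein or phosphorylation.

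Promoter letters show which members carry the classic binding site of the response, and 4 windows are given for that reason: those of Sdf2l1 and Herpud1, the members called most often below, and those of the chaperone genes Hspa5 and Pdia6. RefSeq promoter windows (GRCm38.p6, from 250 bases before to 50 after the transcription start) were found for 31 of the 37 members, and Atf6, Derl1, Hyou1, Manf, Ppp1r15b and Sec61a1 had none. On either strand, the ER stress response element (CCAAT and CCACG with any 9 bases between them) was in the windows of 9 of the 31 members (29%), namely Calr, Canx, Creld2, Derl3, Dnajc3, Hsp90b1, Hspa5, Pdia6 and Syvn1, against 37 of 27025 windows of all genes (0.137%). The second form of the element, ATTGG and CCACG with any 1 base between them, was in those of Dnajb11 and Herpud1 (6.45% of members, against 0.0444% of all genes). The core TTGCATCA of the element that ATF4 binds with C/EBP proteins was in those of Chac1 and Herpud1, against 1.03% of all genes. The core TGACGTGG of the element bound by XBP1 was in no member's window and in 0.714% of all windows. Hsp90b1 held the first element at 2 places, Herpud1 held 2 different motifs, and no matches overlapped. A match is a description of the letters and not evidence of binding. The 250 bases before the start are given 5′ to 3′ on the gene's strand, with matched letters in capitals: Sdf2l1 at chr16:17132384-17132633 (minus strand), Herpud1 at chr8:94386179-94386428 (plus), Hspa5 at chr2:34771840-34772089 (plus) and Pdia6 at chr12:17266339-17266588 (plus).
Sdf2l1: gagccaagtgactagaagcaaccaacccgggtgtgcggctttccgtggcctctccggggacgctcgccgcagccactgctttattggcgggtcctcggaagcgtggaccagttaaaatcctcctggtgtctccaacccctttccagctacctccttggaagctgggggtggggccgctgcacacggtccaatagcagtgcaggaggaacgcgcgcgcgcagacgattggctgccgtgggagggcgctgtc
Herpud1: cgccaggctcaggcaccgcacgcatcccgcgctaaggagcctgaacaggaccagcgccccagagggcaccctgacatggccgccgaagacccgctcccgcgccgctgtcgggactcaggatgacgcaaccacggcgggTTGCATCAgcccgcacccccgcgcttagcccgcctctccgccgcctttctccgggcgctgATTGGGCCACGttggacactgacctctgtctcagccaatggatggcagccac
Hspa5: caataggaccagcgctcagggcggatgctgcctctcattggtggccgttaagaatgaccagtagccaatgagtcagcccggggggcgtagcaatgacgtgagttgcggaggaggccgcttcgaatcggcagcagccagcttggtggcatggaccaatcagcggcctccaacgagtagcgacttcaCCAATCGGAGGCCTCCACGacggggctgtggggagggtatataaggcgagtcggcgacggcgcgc
Pdia6: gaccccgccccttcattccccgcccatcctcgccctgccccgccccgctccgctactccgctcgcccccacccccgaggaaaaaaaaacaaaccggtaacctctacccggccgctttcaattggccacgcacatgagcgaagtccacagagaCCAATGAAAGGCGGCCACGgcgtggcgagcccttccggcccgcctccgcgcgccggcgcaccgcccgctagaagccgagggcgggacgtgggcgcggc
The Sdf2l1 stretch has no capitals because it held none of these motifs. In Hspa5 the capitals are the ER stress response element at -65 to -47 from the start, and in Pdia6 the same element at -98 to -80. In Herpud1 they are the ATF4 and C/EBP core at -112 to -105 and the second ER stress response element at -52 to -42.

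Of the 37 members, 34 passed the filter on low signals (at or above the array's 40th percentile, a log2 signal of 7.16 to 7.44, in at least 4 arrays) and were tested among 13152 genes. Ddit3, Trib3 and Derl3 did not pass and were not tested. Values are the authors' log2 signals, so a difference of 1 is a doubling, and errors of differences are limma's standard errors (SE). A gene was called where its p, adjusted by Benjamini-Hochberg over all genes tested, was under 0.05. The targeted genes were checked first: Sav1 averaged 7.64 ± 0.37 in Sav1+/-, 7.65 ± 0.27 in Rassf1a-/- Sav1+/-, 8.61 ± 0.14 in Rassf1a-/- and 8.53 ± 0.11 in wild-type livers (SD, n = 4 each), which follows the labels. The Rassf1 probe set averaged 7.20 ± 0.20 in Rassf1a-/- and 7.56 ± 0.10 in Rassf1a-/- Sav1+/- livers, against 7.52 ± 0.50 in Sav1+/- and 7.44 ± 0.17 in wild-type livers (SD, n = 4 each). It did not separate the genotypes, and no source used here says which part of the gene its probes read. Over all probe sets the arrays of 1 genotype correlated at 0.925 to 0.975 and no 2 were duplicates. Hepatocyte markers such as Alb averaged 13.13 to 13.52 in every array. In bulk RNA, fewer cells of a type and less RNA per cell cannot be told apart. In 5 arrays (Rassf1a-/- replicate 2, Sav1+/- replicates 3 and 4, Rassf1a-/- Sav1+/- replicates 1 and 2, none of wild type) the mean of 3 Y-linked genes was 8.87 to 9.18, against 2.09 to 4.17 in the other 11. Xist, the RNA of X inactivation, was 2.12 to 4.31 in these 5 arrays and 10.34 to 11.47 in the other 11. By both signals the 5 arrays read as male and the 11 as female, although the labels give no sex. Sex read in this way is not balanced over the genotypes.

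Sav1+/- replicate 1 stood apart for these genes. It had the lowest signal of all 16 arrays in 25 of the 34 members tested, against 30.9% of all genes tested. Its mean over the 11 ER chaperones was 10.50, while the other 15 arrays lay between 10.87 and 11.71. In it the degradation ligase gene Syvn1 had a signal of 9.39, against 10.45 to 11.81 elsewhere. Several results that rest on it are given with and without it. The fit on Y-linked signal and the medians by promoter element for the averaged Rassf1a change were made only with it. Every array of Rassf1a-/- and Rassf1a-/- Sav1+/- livers also had a higher clock score than every array without the Rassf1a change. The score, the mean of 3 clock genes minus that of 9 genes of the opposite phase, was 1.30 to 1.75 in Rassf1a-/- and -0.10 to 2.01 in Rassf1a-/- Sav1+/-, against -2.67 to -1.51 in Sav1+/- and -2.62 to -1.44 in wild-type livers. Clock phase and Rassf1a genotype cannot be told apart here, and this touches every comparison across Rassf1a genotypes below. The plots of list means by array show the chaperone mean beside the clock score, fasting-induced genes and Y-linked signal.

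**Figure D1:**
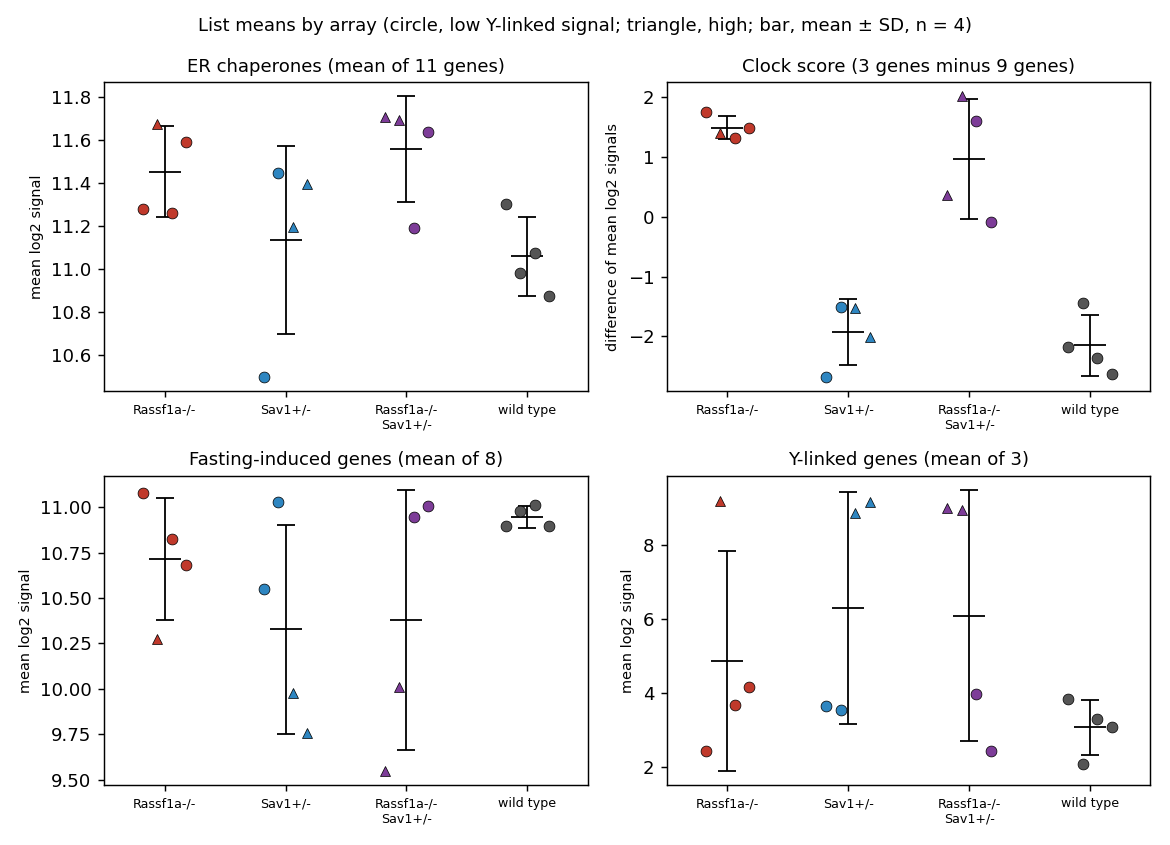
Mean log2 signal of the 11 ER chaperone genes, of 8 fasting-induced genes and of 3 Y-linked genes, and the clock score, in each array by genotype. Circles are the 11 arrays with low and triangles the 5 with high Y-linked signal, and bars the mean ± SD (n = 4). The clock score does not overlap between livers with and without the Rassf1a change, while the chaperone mean overlaps and is lowest, at 10.50, in 1 Sav1+/- array.

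In Rassf1a-/- livers the ER cochaperone gene Sdf2l1 rose and Herpud1, a scaffold of ER-associated degradation, fell, while the other 32 members tested were not called against wild type. The 2 calls among 34 stand against 0.700% of all genes called in this comparison. Sdf2l1 gave log2 signals of 11.77, 12.19, 11.14 and 11.98 in Rassf1a-/- livers, 10.37, 10.46, 10.97 and 11.03 in Sav1+/- livers, 11.65, 11.29, 10.79 and 11.64 in Rassf1a-/- Sav1+/- livers, and 10.90, 10.52, 10.34 and 10.14 in wild-type livers. All 4 Rassf1a-/- arrays lay above all 4 wild-type arrays, and the difference was +1.30 ± 0.25, 2.46-fold (adjusted p = 0.0160, limma). Its call was lost without the high-Y arrays (+1.16, adjusted p = 0.0771) and without Rassf1a-/- replicate 1 (0.0571), 2 (0.0708) or 4 (0.0655) or wild-type replicate 3 (0.0691) or 4 (0.0742), at differences of +1.16 to +1.51 over all fits without 1 array.

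Herpud1 ran the other way. Its log2 signals were 11.63, 12.21, 11.61 and 12.04 in Rassf1a-/- livers, 12.32, 12.45, 12.32 and 12.48 in Sav1+/- livers, 12.30, 11.91, 12.10 and 12.12 in Rassf1a-/- Sav1+/- livers, and 12.84, 12.47, 12.64 and 12.80 in wild-type livers. Neither genotype with the Rassf1a change overlapped wild type. The difference was -0.82 ± 0.15 for Rassf1a-/- against wild type (adjusted p = 0.0117) and -0.58 ± 0.15 for Rassf1a-/- Sav1+/- against wild type (adjusted p = 0.0813, not called). The Rassf1a-/- call was lost without Rassf1a-/- replicate 1 (adjusted p = 0.0612) or wild-type replicate 1 (0.0563) or 4 (0.0507), and held without the high-Y arrays (-0.93, adjusted p = 0.0238). In the textbook response Herpud1 is induced together with the chaperones.

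**Figure D2:**
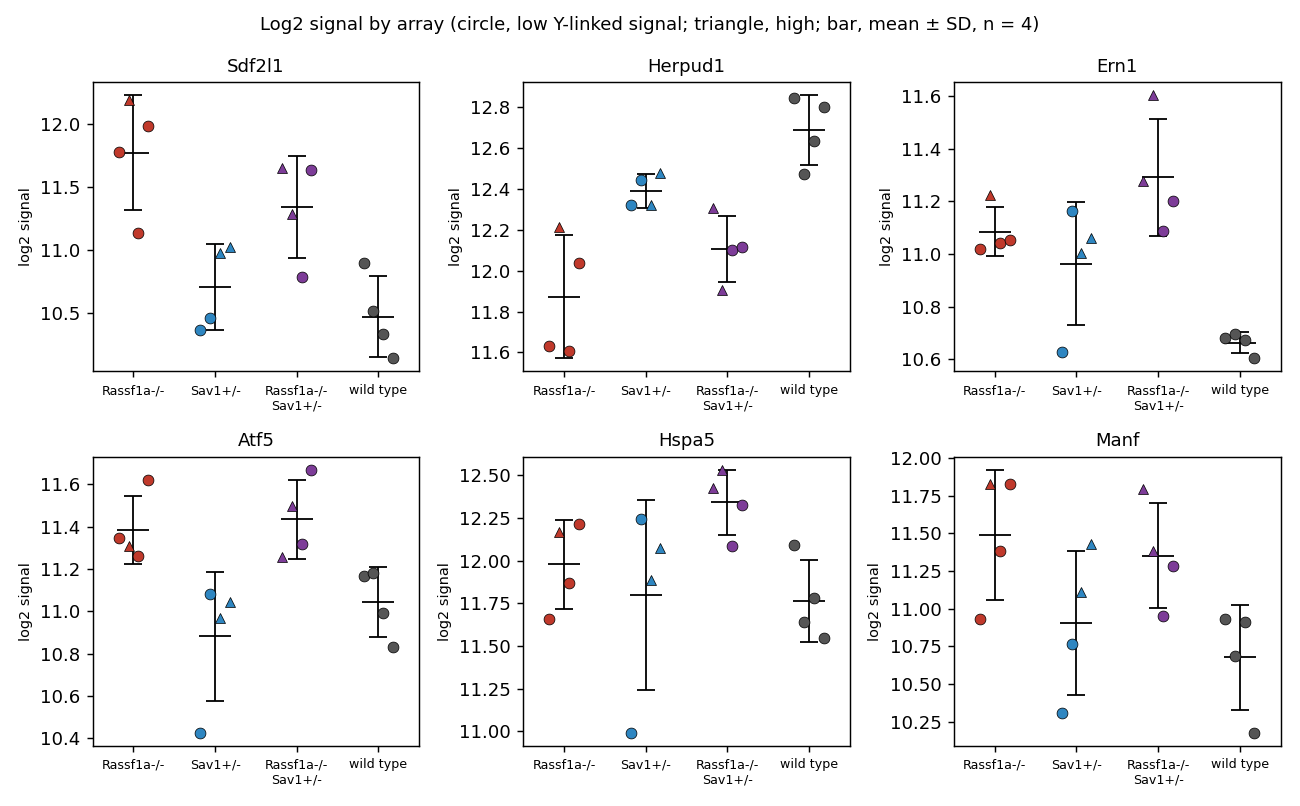
Log2 signal of 6 members in each array by genotype; circles are arrays of low and triangles of high Y-linked signal, and bars are mean ± SD (n = 4). Sdf2l1 is above wild type and Herpud1 below it in all 4 Rassf1a-/- arrays, and Ern1 is above wild type in all 4 arrays of both genotypes with the Rassf1a change.

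In Rassf1a-/- Sav1+/- livers Ern1, which encodes the sensor IRE1, rose against wild type and was the single member called, against 0.821% of all genes. Ern1 signals were 11.02, 11.22, 11.04 and 11.05 in Rassf1a-/- livers, 10.63, 11.16, 11.003 and 11.06 in Sav1+/- livers, 11.28, 11.60, 11.09 and 11.20 in Rassf1a-/- Sav1+/- livers, and 10.68, 10.70, 10.67 and 10.60 in wild-type livers. The wild-type arrays were tight and lay below every array of the other genotypes except Sav1+/- replicate 1. The difference was +0.63 ± 0.14, 1.55-fold (adjusted p = 0.0370), and for Rassf1a-/- against wild type +0.42 ± 0.14 (adjusted p = 0.237). The call held in 5 of 16 fits without 1 array. It held without Rassf1a-/- replicate 2 (0.0463), Sav1+/- replicate 1 (0.0142) or 2 (0.0271), or Rassf1a-/- Sav1+/- replicate 3 (0.0475) or 4 (0.0417), and the adjusted p reached 0.165 in the 11 others and 0.778 without the high-Y arrays. That last fit kept only replicates 3 and 4 of Rassf1a-/- Sav1+/- livers and called 6 of 12674 genes. Over the alternatives other than leaving out 1 array, the Ern1 difference was +0.48 to +0.64.

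Over both Sav1 states together, the Rassf1a change came with higher Sdf2l1 (+0.97 ± 0.17, adjusted p = 0.00597), lower Herpud1 (-0.55 ± 0.11, adjusted p = 0.00911) and higher Atf5 (+0.45 ± 0.11, adjusted p = 0.0444). That is 3 of 34 members called, against 2.23% of all genes. Sdf2l1 and Herpud1 passed whichever of the 16 arrays was left out (highest adjusted p 0.0183 and 0.0273), but not without the 5 high-Y arrays (0.0581 and 0.0646). Atf5 encodes a transcription factor of the integrated stress response. Its signals were 11.35, 11.31, 11.26 and 11.62 in Rassf1a-/- livers, 10.43, 11.08, 10.97 and 11.04 in Sav1+/- livers, 11.26, 11.50, 11.32 and 11.67 in Rassf1a-/- Sav1+/- livers, and 11.17, 11.18, 10.99 and 10.83 in wild-type livers. All 8 arrays with the Rassf1a change lay above all 8 without it. The Atf5 call held in 3 of 16 fits without 1 array, those without Rassf1a-/- replicate 3 (0.0475) or Sav1+/- replicate 2 (0.0252) or 4 (0.0409), and the adjusted p reached 0.111 in the 13 others. It was lost without the high-Y arrays (+0.55, adjusted p = 0.149) and without a filter on low signals (0.0892). Ern1 (+0.37 ± 0.10, adjusted p = 0.0537) and Manf (+0.63 ± 0.18, adjusted p = 0.0832) came next and did not pass.

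Sav1+/- livers showed no called member against wild type, as no gene of the 13152 was called in that comparison (limma), and 1 member, Ern1, had an unadjusted p under 0.05, against 9.15% of all genes (3 members without Sav1+/- replicate 1). The members with the smallest p were Ern1 (+0.30 ± 0.14), Herpud1 (-0.30 ± 0.15), Asns (+1.43 ± 0.95), Edem1 (-0.16 ± 0.12) and Pdia6 (+0.27 ± 0.24), with adjusted p of 0.532 to 0.796. No member was called for the Sav1 change averaged over Rassf1a states (background 0.0228%) or for the interaction of both changes (background 0%). An unadjusted p under 0.05 was reached by 1 member in each, against 14.8% and 9.40% of all genes, and without Sav1+/- replicate 1 by 10 members for the averaged Sav1 change, against 20.5%, and by 2 for the interaction. The smallest adjusted p of a member for the interaction was 0.458, for Herpud1 (+0.53 ± 0.21). Sav1+/- and wild-type arrays overlapped in every member tested, while they separated in 4.68% of all genes.

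The differences by role are plotted for each genotype against wild type, all 3 comparisons sharing the same 4 wild-type arrays. In Rassf1a-/- livers 26 of 34 members had a positive difference, with a median of +0.12, against 48.3% of all genes and a median of -0.01. In Rassf1a-/- Sav1+/- livers 29 of 34 did, with a median of +0.33, against 58.7% and +0.05 over all genes, and in Sav1+/- livers 19 of 34, with a median of +0.02, against 45.9% and -0.02. An unadjusted p under 0.05 was reached by 8 members in Rassf1a-/- livers, against 10.4% of all genes, and by 14 where both changes were combined, against 13.6%. In fits without 1 array the first count was 4 to 10, lowest without Rassf1a-/- replicate 2 (7.14% of all genes) or wild-type replicate 4 (9.62%). The second was 5 to 18, lowest without Rassf1a-/- Sav1+/- replicate 2 (8.41%), and 6 without wild-type replicate 4 (12.7%). Without the high-Y arrays the counts were 4 of 32 and 3 of 32, against 7.24% and 5.11%. Leaving out 1 array moved the Rassf1a-/- median to between +0.06 (without wild-type replicate 2) and +0.18 (without wild-type replicate 1), and the Sav1+/- median to +0.16 without Sav1+/- replicate 1. The Sav1+/- median turned negative without Sav1+/- replicate 2 (-0.11) or 4 (-0.04) or wild-type replicate 2 (-0.02) or 4 (-0.01). In Rassf1a-/- Sav1+/- livers the Kupffer cell markers shared the direction of the members, 7 of 8 being positive with none called, and their mean was 9.74 to 10.63, against 9.35 to 10.29 in wild-type livers. Of the 5 lymphocyte and plasma cell markers tested, 4 were positive and none called. All 9 such markers, including those under the filter, averaged 7.46 to 8.07, against 7.19 to 7.68. Endothelial markers were positive in 6 of 8, none called and 2 with an unadjusted p under 0.05, and averaged 9.87 to 10.28, against 9.57 to 9.95. In Rassf1a-/- livers 1 of 8 Kupffer (median -0.12), 1 of 5 lymphocyte and plasma cell and 3 of 8 endothelial markers were positive. In Sav1+/- livers 8 of 8 Kupffer (median +0.32), 4 of 5 lymphocyte and plasma cell and 6 of 8 endothelial markers were positive. Of 8 fasting-induced genes 7 had a negative difference in Rassf1a-/- livers, none called, and their means were 10.27 to 11.08, against 10.90 to 11.01 in wild-type livers. In Rassf1a-/- Sav1+/- livers 6 of those 8 were negative, 1 of them called (Angptl4), and their means were 9.55 to 11.01. These means followed Y-linked signal: 9.55 and 10.01 in the high-Y replicates 1 and 2, against 10.95 and 11.01 in replicates 3 and 4. Over all genotypes they were 9.55 to 10.27 in the 5 high-Y arrays and 10.55 to 11.08 in the other 11. The part of these lists in the members' differences was not tested.

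**Figure D3:**
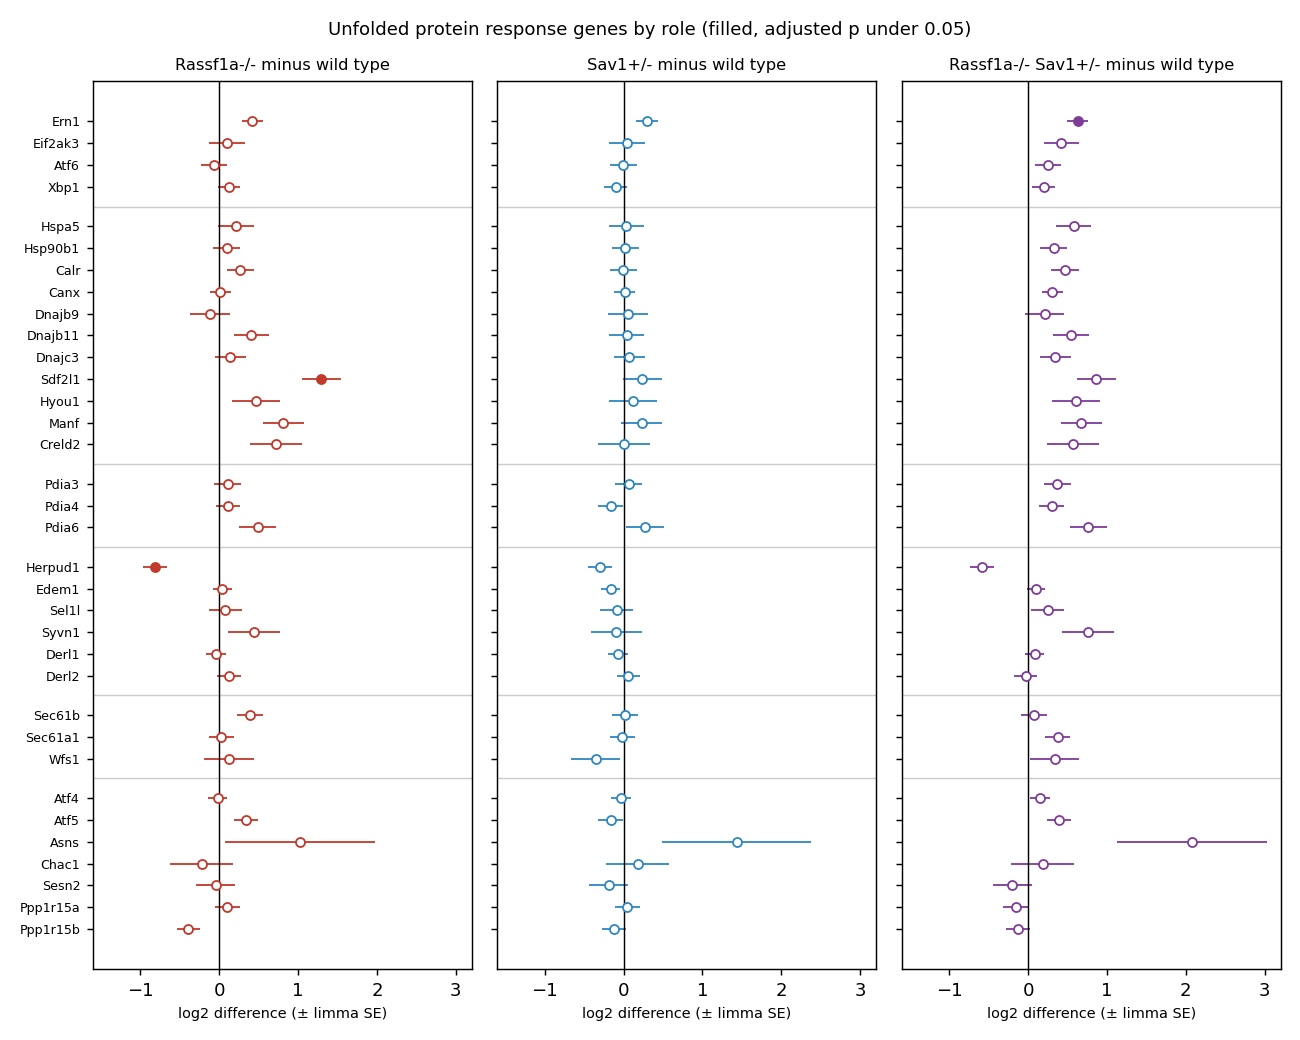
Log2 difference from wild type (± limma SE, 4 arrays per genotype) of the 34 members tested, grouped by role from top to bottom as sensors and Xbp1, chaperones, disulfide isomerases, degradation, translocon and Wfs1, and the ATF4 arm. Filled points passed an adjusted p of 0.05: Sdf2l1 and Herpud1 in Rassf1a-/- livers and Ern1 in Rassf1a-/- Sav1+/- livers.

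The effect of the Rassf1a change can be read in separate arrays, since Rassf1a-/- against wild type and Rassf1a-/- Sav1+/- against Sav1+/- have none in common. In the second comparison no member was called, against 0.836% of all genes, and 12 of 34 had an unadjusted p under 0.05, all of them positive, against 15.0% of all genes. Without Sav1+/- replicate 1 that count was 2, against 12.2%. Of the 34 members, 24 (70.6%) were positive in both comparisons, against 33.7% of all genes, and 23 were without Sav1+/- replicate 1. Herpud1, Ppp1r15b and Sesn2 were negative in both, 8.82% of members against 22.5% of all genes. The second comparison leaned on 1 array: 29 of 34 members were positive, against 62.8% of all genes, with a median of +0.32, against +0.08 over all genes, and +0.18, against +0.04, without Sav1+/- replicate 1. Without Sav1+/- replicate 2, which was the highest of all arrays in 7 members and in 16.8% of all genes, Atf5 and the disulfide isomerase gene Pdia4 were called. Calls rose over all genes in that fit, to 478 of 13074, against 110 of 13152 with every array.

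Among the sensors and their direct effector, Ern1 alone was called. Xbp1, which encodes the transcription factor downstream of IRE1, had log2 signals of 12.22, 12.51, 12.26 and 12.62 in Rassf1a-/- livers, 12.07, 12.15, 12.19 and 12.29 in Sav1+/- livers, 12.65, 12.55, 12.22 and 12.48 in Rassf1a-/- Sav1+/- livers, and 12.59, 12.09, 12.24 and 12.20 in wild-type livers. These groups overlapped, and the averaged Rassf1a difference was +0.21 ± 0.10 (adjusted p = 0.323). Eif2ak3 differed from wild type by +0.10 in Rassf1a-/- livers, +0.04 in Sav1+/- livers and +0.42 in Rassf1a-/- Sav1+/- livers, and Atf6 by -0.07, -0.00 and +0.25 in the same order, none of them called.

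Most ER chaperones had positive differences in both genotypes with the Rassf1a change. In Rassf1a-/- livers 10 of 11 were positive against wild type (median +0.27, 1 called, Sdf2l1), with Dnajb9 at -0.11, and in Rassf1a-/- Sav1+/- livers all 11 were (median +0.55, none called, 6 with an unadjusted p under 0.05), at a median of +0.35 without the high-Y arrays. For the Rassf1a change over both Sav1 states the median was +0.38 with all 11 positive, against 55.1% of all genes, and +0.29 without Sav1+/- replicate 1. Hspa5, the major ER chaperone BiP and the usual marker of the response, had signals of 11.66, 12.17, 11.87 and 12.21 in Rassf1a-/- livers, 10.99, 12.25, 11.89 and 12.07 in Sav1+/- livers, 12.42, 12.53, 12.08 and 12.33 in Rassf1a-/- Sav1+/- livers, and 12.09, 11.64, 11.78 and 11.54 in wild-type livers. The Rassf1a-/- Sav1+/- arrays were the highest as a group but their lowest, 12.08, fell just under the highest wild-type array. Hspa5 differed from wild type by +0.58 ± 0.23 there (adjusted p = 0.266) and by +0.21 ± 0.23 in Rassf1a-/- livers (adjusted p = 0.736).

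Manf, which encodes a secreted ER stress protein, had signals of 10.93, 11.83, 11.38 and 11.83 in Rassf1a-/- livers, 10.31, 10.77, 11.11 and 11.43 in Sav1+/- livers, 11.80, 11.38, 10.95 and 11.28 in Rassf1a-/- Sav1+/- livers, and 10.93, 10.69, 10.91 and 10.18 in wild-type livers. Its differences from wild type were +0.82 ± 0.26 in Rassf1a-/- (adjusted p = 0.222) and +0.68 ± 0.26 in Rassf1a-/- Sav1+/- livers (adjusted p = 0.260). The lowest arrays of both genotypes lay close to the highest wild-type array. Calr, the lectin chaperone calreticulin, had signals of 13.03, 12.97, 12.62 and 12.87 in Rassf1a-/- livers, 12.13, 12.95, 12.60 and 12.71 in Sav1+/- livers, 12.97, 13.30, 12.83 and 13.17 in Rassf1a-/- Sav1+/- livers, and 12.88, 12.53, 12.36 and 12.63 in wild-type livers. Its difference was +0.47 ± 0.17 in Rassf1a-/- Sav1+/- livers (adjusted p = 0.244), where 1 of 4 arrays overlapped wild type. Of the other chaperones in that genotype, Sdf2l1 differed by +0.87 ± 0.25 (adjusted p = 0.117), Hyou1 by +0.61, Creld2 by +0.57 and the J-domain protein genes Dnajb11 and Dnajb9 by +0.55 and +0.21.

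The 3 disulfide isomerases were positive in both genotypes with the Rassf1a change. Pdia6 had signals of 10.83, 11.02, 10.26 and 10.45 in Rassf1a-/- livers, 9.73, 10.88, 10.41 and 10.68 in Sav1+/- livers, 10.90, 11.18, 10.49 and 11.11 in Rassf1a-/- Sav1+/- livers, and 10.49, 9.95, 10.06 and 10.12 in wild-type livers. All Rassf1a-/- Sav1+/- arrays but the lowest passed the highest wild-type value, and the difference was +0.77 ± 0.24 (adjusted p = 0.150). Pdia3 and Pdia4 differed by +0.37 and +0.30 in the same comparison.

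Degradation genes did not share a direction. Besides Herpud1, Syvn1, the ubiquitin ligase HRD1, differed from wild type by +0.44 in Rassf1a-/- and +0.76 in Rassf1a-/- Sav1+/- livers, while Derl1 and Derl2, channel components, stayed between -0.04 and +0.12 in both. Syvn1 was also called for Y-linked signal, as given below, and the wild-type group held no high-Y array. Edem1, a lectin that hands over misfolded glycoproteins, had signals of 12.27, 12.17, 12.26 and 12.38 in Rassf1a-/- livers, 12.08, 12.31, 11.94 and 11.94 in Sav1+/- livers, 12.20, 12.33, 12.39 and 12.40 in Rassf1a-/- Sav1+/- livers, and 12.15, 12.19, 12.15 and 12.43 in wild-type livers. All groups overlapped, and Edem1 had the smallest within-genotype spread of the 34 members (pooled SD 0.13, smaller in 3.4% of all genes). The adaptor gene Sel1l differed by +0.08 in Rassf1a-/- and +0.25 in Rassf1a-/- Sav1+/- livers. Sec61a1, of the translocation channel, and the calcium regulator Wfs1 differed by +0.38 and +0.34 in Rassf1a-/- Sav1+/- livers, and Sec61b by +0.39 in Rassf1a-/- livers, none called.

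**Figure D4:**
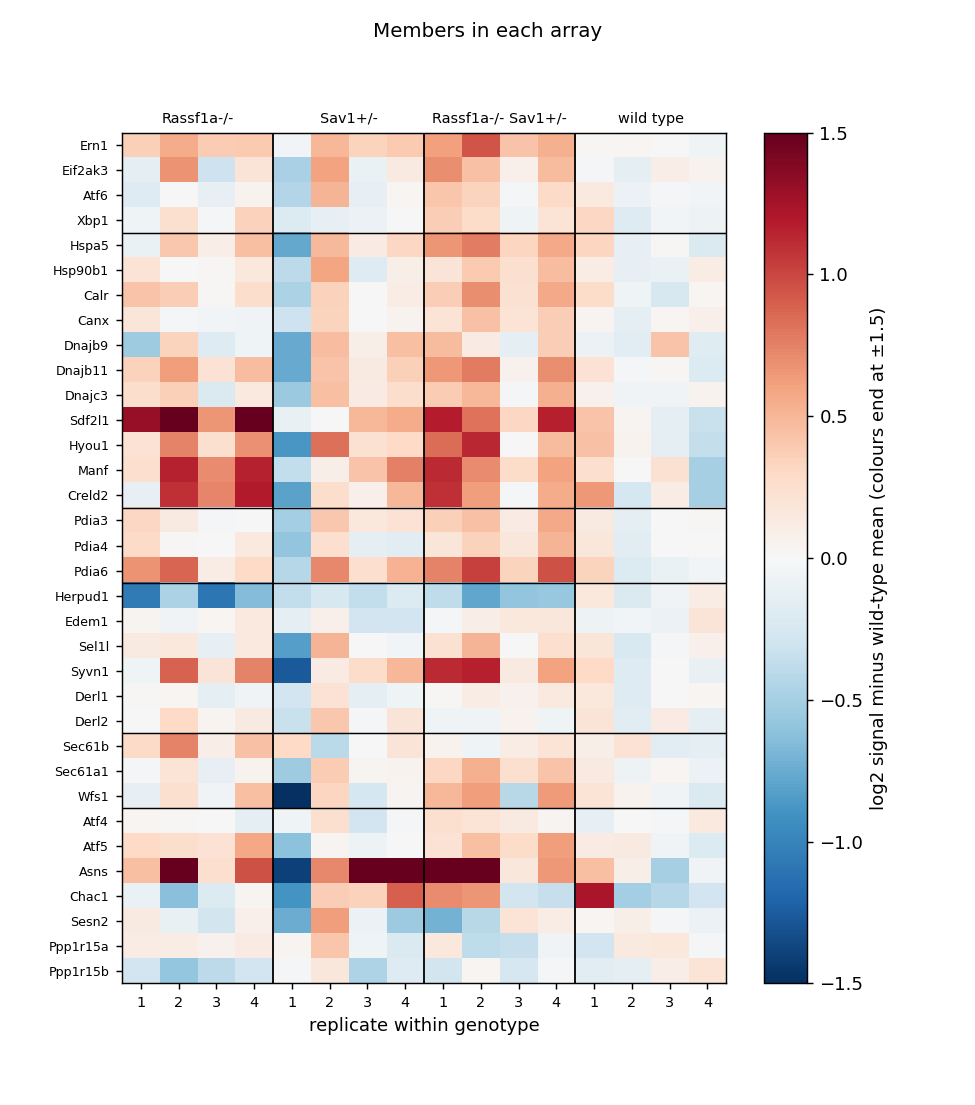
Log2 signal of the 34 members tested in each array minus the wild-type mean of the gene, with rows by role and columns by genotype and replicate; colours end at ±1.5. Sav1+/- replicate 1 is low in most rows, Herpud1 is low in both genotypes with the Rassf1a change, and Asns is high in the 5 arrays with high Y-linked signal.

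The ATF4 arm showed no common direction. Atf4 itself had signals of 10.63, 10.61, 10.60 and 10.46 in Rassf1a-/- livers, 10.53, 10.83, 10.31 and 10.57 in Sav1+/- livers, 10.84, 10.80, 10.73 and 10.64 in Rassf1a-/- Sav1+/- livers, and 10.47, 10.59, 10.57 and 10.75 in wild-type livers. The averaged Rassf1a difference was +0.08 ± 0.09 (adjusted p = 0.688) and turned to -0.02 without the high-Y arrays. Ddit3, the death-promoting factor CHOP, gave 5.72, 6.75, 6.41 and 6.46 in Rassf1a-/- livers, 5.30, 6.40, 6.18 and 6.17 in Sav1+/- livers, 6.29, 6.52, 6.31 and 6.05 in Rassf1a-/- Sav1+/- livers, and 6.25, 6.15, 6.08 and 6.27 in wild-type livers. Every Ddit3 value lay under the level of the filter. Trib3, a pseudokinase induced by ATF4 and CHOP, lay between 6.90 and 7.61 in Rassf1a-/-, 5.95 and 7.45 in Sav1+/-, 6.67 and 7.29 in Rassf1a-/- Sav1+/-, and 6.35 and 7.03 in wild-type livers, and Derl3 between 5.74 and 7.58, 4.82 and 7.59, 5.66 and 7.12, and 5.80 and 6.34 in the same order.

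Ppp1r15b and Ppp1r15a encode the subunits that direct a phosphatase to the initiation factor PERK modifies. Ppp1r15b had signals of 10.52, 10.23, 10.42 and 10.53 in Rassf1a-/- livers, 10.80, 10.99, 10.36 and 10.62 in Sav1+/- livers, 10.54, 10.85, 10.57 and 10.80 in Rassf1a-/- Sav1+/- livers, and 10.64, 10.68, 10.92 and 11.02 in wild-type livers. All 4 Rassf1a-/- arrays lay below wild type, with a difference of -0.39 ± 0.15 that did not pass (adjusted p = 0.350). Ppp1r15a differed by +0.10 in Rassf1a-/- and -0.15 in Rassf1a-/- Sav1+/- livers, the glutathione-degrading enzyme gene Chac1 by -0.22 and +0.19, and the stress-inducible Sesn2 by -0.05 and -0.20.

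Asns, the asparagine synthetase gene and a classic ATF4 target, was high in the 5 arrays of high Y-linked signal. Its log2 signals were 6.36, 8.36, 6.16 and 6.86 in Rassf1a-/- livers, 4.51, 6.62, 8.62 and 9.61 in Sav1+/- livers, 9.85, 9.45, 6.08 and 6.56 in Rassf1a-/- Sav1+/- livers, and 6.37, 6.0003, 5.41 and 5.86 in wild-type livers. Where Y-linked signal was high (5 arrays) Asns gave 8.36 to 9.85, and in the other 11 arrays 4.51 to 6.86, so Asns passed the filter only through the 5, and these levels are a description. In a fit of the Y-linked mean within genotypes, which called 4.71% of all genes, Syvn1 was called at +0.80 over the mean gap between the 2 kinds of array (adjusted p = 0.0243, limma). That fit included the low-Y array Sav1+/- replicate 1, where Syvn1 was lowest (9.39), and was not repeated without it. Asns differed from wild type by +2.08 ± 0.95 in Rassf1a-/- Sav1+/- livers (adjusted p = 0.348), and the wild-type group held no high-Y array. Asns had the largest within-genotype spread of the members (pooled SD 1.58, larger than in 99.6% of all genes).

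**Figure D5:**
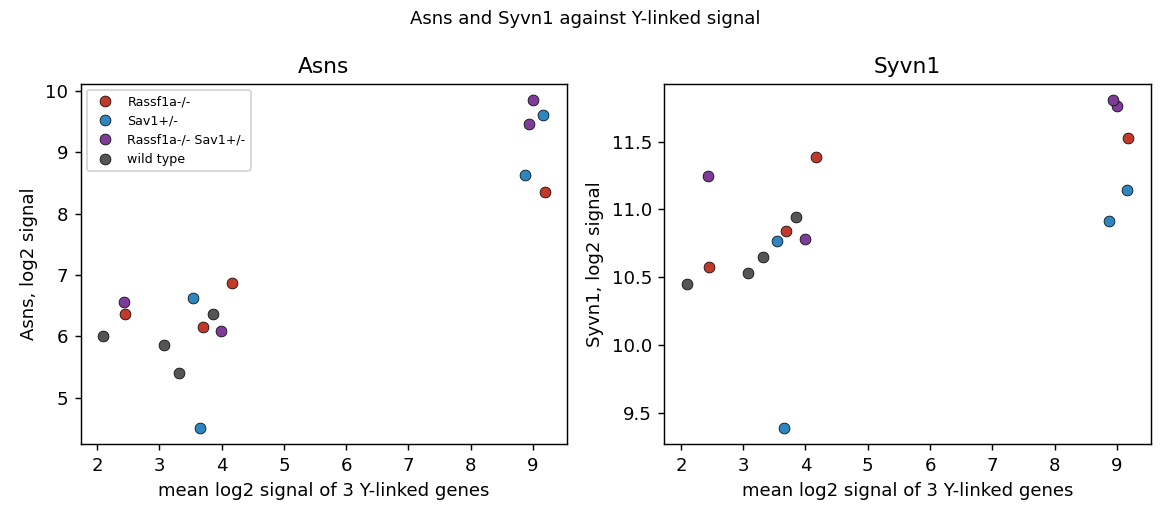
Log2 signal of Asns and Syvn1 against the mean log2 signal of 3 Y-linked genes in the 16 arrays, coloured by genotype. Asns is 8.36 to 9.85 in the 5 arrays on the right and 4.51 to 6.86 in the other 11, while Syvn1 overlaps.

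Groups that did not overlap were also counted. Rassf1a-/- arrays separated from wild type in 5 of 34 members, against 10.9% of all genes, with Sdf2l1, Ern1 and Atf5 above and Herpud1 and Ppp1r15b below. Rassf1a-/- Sav1+/- arrays separated from wild type in 7, against 10.8%, with Ern1, Atf5, Manf, Hsp90b1, Canx and Sec61a1 above and Herpud1 below. Against Sav1+/- they separated in 2, against 6.46%, with Atf5 above and Herpud1 below. Rassf1a-/- Sav1+/- arrays separated from Rassf1a-/- arrays in 4, against 9.82%, with Canx, Sec61a1, Atf4 and Ppp1r15b above. No member was called in that last comparison (background 0.00760%), and 2 members had an unadjusted p under 0.05, against 14.7% of all genes (4 without Sav1+/- replicate 1).

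Members with and without the ER stress response elements were compared by their medians. For the Rassf1a change over both Sav1 states, the 10 tested members with either form of the element had a median of +0.37, 9 of them positive and Herpud1 negative, and the 18 tested members whose window held neither had a median of +0.21, 15 of them positive. The ranges overlapped, from -0.55 to +0.64 and from -0.11 to +0.97, the highest being Sdf2l1, whose window held none of the motifs. Against wild type the medians were +0.24 and +0.11 in Rassf1a-/- livers, and +0.51 and +0.23 in Rassf1a-/- Sav1+/- livers.

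Calls were also sought in wider lists of the same pathways. Among 45 further genes of ER folding and export, 42 were tested and none was called in any of the 8 comparisons (limma). The shares of all genes called in those comparisons were 0% to 2.23%. An unadjusted p under 0.05 was reached by 2 of the 42 in Rassf1a-/- livers against wild type, by 3 in Sav1+/- and by 14 in Rassf1a-/- Sav1+/-, where the shares of all genes were 10.4%, 9.15% and 13.6% in that order. The smallest adjusted p over those comparisons belonged to the vesicle fusion gene Bet1, at +0.71 ± 0.20 in Rassf1a-/- livers (0.141). Among 36 further targets of ATF4 and the integrated stress response, 26 were tested. Against wild type 1 was called in Rassf1a-/- and 1 in Rassf1a-/- Sav1+/- livers, where 0.700% and 0.821% of all genes were called. Cebpb, which encodes a partner of ATF4 that also follows feeding and hormones, fell in Rassf1a-/- livers, with signals of 8.48, 8.45, 8.37 and 8.72, against 10.07, 9.31, 9.61 and 9.38 in wild type (-1.09 ± 0.22, adjusted p = 0.0255). The threonyl-tRNA synthetase gene Tars1 rose in Rassf1a-/- Sav1+/- livers, with signals of 10.44, 10.996, 10.67 and 10.47, against 9.75, 10.02, 9.50 and 9.57 in wild type (+0.93 ± 0.19, adjusted p = 0.0321). Both were also called for the Rassf1a change over both Sav1 states, Cebpb at -0.87 (adjusted p = 0.00597) and Tars1 at +0.81 (adjusted p = 0.00384). They were the only calls among the 26 there, against 2.23% of all genes. Whether these calls hold without single arrays or without the high-Y arrays is not given here. Over all genes, calls for that change went from 293 of 13152 to 80 of 12674 without the high-Y arrays.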

How the data were processed

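Total RNA of 16 mouse liver samples, 4 per genotype, was measured on Affymetrix arrays. The deposited values are log2 signals per probe set. Per the submitters' processing notes, the authors used Affymetrix Expression Console. No source used here gives its version, the summarisation, the normalization or the annotation build. The number of arrays limits precision. Probe sets naming several genes were left out, and each gene took its highest-mean probe set among those at or above the 40th percentile of 4 or more arrays. Dnajc3, Pdia4, Ppp1r15b and Sec61b had several probe sets, those of Dnajc3 with identical values. The 13152 genes were fitted with limma 3.58.1 (R 4.3.3, with version 1.17.8 of data.table), as 4 genotype means, which leaves 12 residual degrees of freedom. The 8 comparisons were the 3 altered genotypes against wild type, the double against both single genotypes, the effect of each change averaged over the other, and their interaction. All tests were two-sided, with Benjamini-Hochberg adjustment over all genes and a threshold of 0.05. On simulated data for Rassf1a-/- against wild type (13152 genes) the fit recovered 16.7%, 77% and 97.7% of genes changed by 0.5, 1 and 2 on the log2 scale. The simulated noise was independent between genes and arrays. It held no shifts shared by the genes of an array, as seen in Sav1+/- replicate 1 and with Y-linked signal, so recovery in the real data may differ.

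The members, role groups, pathway and marker lists and motifs were chosen with earlier results of these data known. Named array by array are Hspa5, Xbp1, Atf4 and Ddit3, every member called in any comparison, and the 5 of smallest p in each comparison with wild type. Alternatives tried were a 60th percentile filter and none, averaging the probe sets of a gene, quantile normalization, array weights, trend and robust moderation, only the compared genotypes, the 11 low-Y arrays alone, a covariate for Y-linked signal, and leaving out each array. Tars1 is listed under its older symbol Tars in the platform annotation.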

Additional observations from a re-analysis of the deposited data

Results flagged for a closer look

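In 3 of the 56 groups of 4 arrays examined for the 14 members named array by array, 1 array lay far from the other 3 by Dixon's criterion, and chance alone gives about 1 in 20 groups. Atf4 was 10.4615 in Rassf1a-/- replicate 4, against 10.60 to 10.63 in the other Rassf1a-/- arrays. Ern1 was 11.2235 in Rassf1a-/- replicate 2, an array of high Y-linked signal, against 11.02 to 11.05 in the others. Edem1 was 12.428 in wild-type replicate 4, against 12.15 to 12.19 in the other wild-type arrays. Their causes were not tested.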

How the results depend on the processing

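No paired analysis was possible because replicate numbers are absent from the labels. Of 21 named results under 25 alternatives, 475 values kept direction and side of the threshold, 41 lost a call, 6 gained one and 2 reversed: Atf4 for the averaged Rassf1a change without the high-Y arrays (-0.0159) and Asns in Sav1+/- livers with the Y-linked covariate (-0.208). Most of the 475 belong to results that were never called. Only calls of the main fit could be lost, those of Sdf2l1, Herpud1, Atf5 and Ern1. Beyond the fits without 1 array, Atf5 was called in 7 and Ern1 in Rassf1a-/- Sav1+/- livers in 5 of 9 alternatives. The number of members called in Rassf1a-/- livers was 3 with array weights, where Ern1 was added (adjusted p = 0.0209). It was 1 without the high-Y arrays and 0 to 2 without 1 array. Over all genes, 898 of 13152 were called with array weights, 59 of 12674 without the high-Y arrays and 54 to 128 without 1 array. Counts over all genes are given in brackets below. In Rassf1a-/- Sav1+/- livers against wild type 2 members were called with the 60th percentile filter (176 of 8828 genes). There were 2 with trend and robust moderation (165 of 13152) and 8 with array weights (1231 of 13152). The count was 0 without a filter (56 of 19939 genes) and with the Y-linked covariate (61 of 13152). It was also 0 with only the compared genotypes (80 of 13152) and without the high-Y arrays (6 of 12674), and 0 to 1 without 1 array (39 to 213 genes). Against Sav1+/- the count of members was 0 to 2 without 1 array (27 to 478 genes). Against Rassf1a-/- it was 2 with array weights (1979 of 13152 genes). For the averaged Rassf1a change it was 0 without the high-Y arrays (80 of 12674 genes) and 2 to 6 without 1 array (192 to 581 genes). For the averaged Sav1 change it was 2 with array weights (1517 of 13152 genes). Apart from fewer arrays and more or fewer genes tested, the causes were not tested. All calls rest on 4 arrays per genotype, and clock phase moves with the Rassf1a change.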
